A study of Mus musculus with 4 samples.

Results

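The membrane skeleton of the red cell is the subject here, as 9 genes that encode its proteins: Sptb, Ank1, Epb42, Epb41, Mpp1, Add1, Add2, Dmtn and Tmod1. They were picked out by name in the deposited table of 47935 loci, and all 9 were found. The choice of genes was made with earlier results of these data known. Epb41 and Epb42 stood there under older symbols and were matched by their transcripts. The Add1 locus also carried the symbol of a microRNA gene, Mir7036b, so its value is shared between both. MEL cells, a mouse erythroleukemia line blocked early in erythroid development, were sequenced as ribosomal RNA-depleted total RNA. There were 2 uninduced and 2 DMSO-induced samples, the latter with 1.5% dimethyl sulfoxide in the medium to start erythroid-like differentiation. How long cells were exposed is not stated. Since the labels do not say whether replicates came from different cultures, the spread behind each p-value may be technical. Levels are FPKM, fragment counts scaled to transcript length and library size. Genes can be set side by side only as far as the transcripts assigned to each locus are right. These range from 1 for Add2 to 18 for Epb41.

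The skeleton is a meshwork of spectrin under the plasma membrane that lets a red cell deform and spring back. Long spectrin rods, each an alpha and a beta chain, meet at junctions built on short actin filaments. Ankyrin and protein 4.2 tie the mesh to the anion exchanger band 3 in the membrane, and protein 4.1 with MPP1 (p55) ties the junctions to glycophorin C. Adducin and tropomodulin cap the opposite ends of the actin filaments, and dematin bundles them. Inherited loss of spectrin, ankyrin, band 3 or protein 4.2 causes fragile, rounded red cells, and erythroid precursors build up these proteins as they mature.

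FPKM summed to between 1055861 and 1325806 per sample. Fragment totals were not given. Relative depth was read from how finely low FPKM are graded in small genes of 1 exon, if values were scaled to library totals alone: 0.92 and 1.0 for the uninduced and 0.67 and 0.75 for the induced replicates, with uninduced replicate 2 as the unit. Erythroid markers were present: 6 of 6, Gata1, Klf1, Epor, Alas2, Hba-a1 and Hbb-bs, reached 1 FPKM. Markers of fibroblasts and lymphocytes did not exceed 0.24 FPKM. Among 3 megakaryocyte markers with a locus of their own, Pf4 and Gp9 reached 1 FPKM, and the list summed to 200.6 and 332.6 FPKM without and 110.8 and 142.5 FPKM with DMSO. That sum is nearly all Pf4 (198 and 329 against 106 and 138 FPKM), while Gp9 was higher with DMSO (2.28 and 2.89 against 5.05 and 4.41 FPKM), as was Itga2b at a shared locus (46.8 and 69.5 against 85.9 and 136 FPKM). None of the 3 was called. Among 4 macrophage markers only Cd68 reached 1 FPKM, with list sums of 7.72 and 5.18 against 2.12 and 1.20 FPKM. Cd68 fell from 7.09 and 4.68 to 1.72 and 0.67 FPKM (limma adjusted p = 0.0273), and Adgre1 did not exceed 0.02 FPKM. Csf1r was higher with DMSO (0.20 and 0.06 against 0.38 and 0.38 FPKM). Cd14 was lower (0.43 and 0.44 against 0.0 and 0.13 FPKM). Both were too low to be tested. What part such cells have in the results was not tested.

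Transcripts of the skeleton were higher in DMSO-induced cells, gene by gene and in sum. Of the 9 members, 8 rose and none fell in limma (adjusted p under 0.05 over all loci, Benjamini-Hochberg), and Add2 did not pass. At an unadjusted p under 0.05 the counts were 9 higher and 0 lower. Of all 12890 loci tested, 11.5% were called higher and 14.7% lower. The induced values lay above both uninduced values for 9 of 9 members, against 36.1% of all loci tested; groups were apart in either direction at 70.8% of them. The median log2 fold change was 1.72 for the members and 0.03 for all loci tested. Fold changes on this scale refer to FPKM + 1, so they understate the change of low genes. In bulk RNA, a larger share of cells that express a gene and more RNA per cell cannot be told apart.

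**Figure D1:**
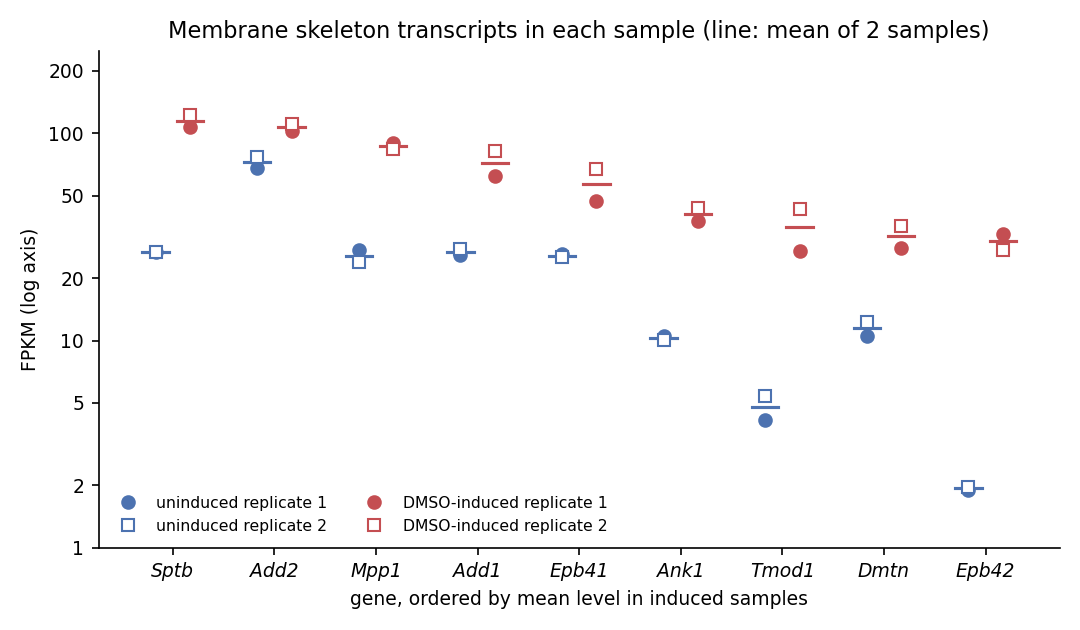
FPKM on a log axis for each member in the 4 samples, uninduced in blue and DMSO-induced in red, with a line at the mean of the 2 samples of a group. Both induced points stand above both uninduced points for each of the 9 genes, with the widest gap for Epb42 (1.90 and 1.97 against 32.8 and 27.3) and the narrowest for Add2 (68.2 and 76.8 against 103 and 111).

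Summed over the 9 genes, FPKM came to 201 and 209.9 in the uninduced and 534 and 617 in the induced samples. Both induced sums exceeded both uninduced sums. The mean was 205.5 ± 6.22 against 575 ± 58.3 FPKM (SD, n = 2 each), a 2.80-fold ratio. A two-sided exact permutation test gave p = 0.333, the smallest that 2 against 2 samples allow.

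These calls, like those of the whole table, depended on having both replicates of each group. With 1 sample left out, limma called 0 members without uninduced replicate 1, 0 without uninduced replicate 2, 3 without induced replicate 1 and 0 without induced replicate 2. In the same fits 0, 0, 180 and 14 of all 12890 loci were called higher, so few calls were made on any gene. At an unadjusted p under 0.05, 8 or 9 members were higher in each of these fits, and all 9 log2 fold changes stayed above 0. With loci of low expression kept in the fit, 7 of 26323 loci were called higher, and 0 members passed, at adjusted p-values from 0.0523 to 0.12, and 9 did at an unadjusted p under 0.05.

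Promoter windows are shown for 3 members that rose, those whose window holds no GENCODE exon, to give the sequence context of these genes. They were read from RefSeq on GRCm38.p6 and cover the 250 bases before an annotated start, 5′ to 3′ on the gene's strand. The Mpp1 window has GATA letters only, and those of Sptb and Add1 have CACC-type letters only. Capitals mark these letters on either strand, and overlapping matches run together. GATA letters were AGATAA or TGATAA, each also with G as the last letter. CACC-type letters, the kind bound by Kruppel-like factors, were CCNCNCCC.
Mpp1: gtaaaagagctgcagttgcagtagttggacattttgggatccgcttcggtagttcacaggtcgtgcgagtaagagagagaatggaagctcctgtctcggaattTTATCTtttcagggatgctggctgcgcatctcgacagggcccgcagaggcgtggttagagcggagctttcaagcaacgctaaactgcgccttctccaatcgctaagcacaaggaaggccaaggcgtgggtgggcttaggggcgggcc
Sptb: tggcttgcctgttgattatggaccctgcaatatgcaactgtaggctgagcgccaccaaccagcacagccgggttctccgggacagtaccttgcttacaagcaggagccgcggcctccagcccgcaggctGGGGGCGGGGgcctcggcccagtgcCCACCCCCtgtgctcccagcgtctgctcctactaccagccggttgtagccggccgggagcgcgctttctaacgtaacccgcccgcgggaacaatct
Add1: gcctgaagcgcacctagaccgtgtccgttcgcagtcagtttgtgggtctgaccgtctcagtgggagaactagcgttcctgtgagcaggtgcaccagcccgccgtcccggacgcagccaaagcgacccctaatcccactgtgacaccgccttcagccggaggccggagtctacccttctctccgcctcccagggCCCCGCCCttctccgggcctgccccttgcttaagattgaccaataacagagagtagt
The Mpp1 window lies at chrX:75131017-75131266 and that of Sptb at chr12:76710548-76710797, both on the minus strand, and that of Add1 at chr5:34573414-34573663 on the plus strand. RefSeq windows were at hand for 7 members, 9 windows in all, since Epb41 has 3. GATA letters occurred in 4 of the 9 windows (Epb42, Mpp1, Add2 and 1 of Epb41) and in 26.5% of all 32851 windows of the same length. CACC-type letters occurred in 6 of 9 (Sptb, Tmod1, Add1, Add2 and 2 of Epb41) and in 45.9% of all windows. NF-E2 letters, TGAGTCA on either strand, occurred in 0 of 9 and in 4.46% of all. Matches are descriptions of letters, and factor binding was not measured. The Add2 window lies 49233 bases before the start of the locus quantified in the table.

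Beta-spectrin and ankyrin, the rod and its tether to band 3, both rose. Sptb, which encodes erythroid beta-spectrin (chromosome 12, 76580488 to 76710547, GRCm38, GENCODE M21, protein-coding), was at 26.6 FPKM in both uninduced samples and at 107 and 122 FPKM in the induced ones. The replicates lay close together and the groups far apart. The difference was 2.06 ± 0.19 in log2 (SE, limma adjusted p = 0.0103), and means of 26.6 and 115 FPKM gave a 4.31-fold ratio. Ank1, ankyrin-1 (chromosome 8, 22974844 to 23150497), was at 10.6 and 10.0 FPKM without and 37.9 and 43.4 FPKM with DMSO. Ankyrin was thus the lower of the pair in each sample, and again no values overlapped. Ank1 rose by 1.88 ± 0.19 in log2 (limma adjusted p = 0.0114). Within each sample the FPKM of Sptb exceeded that of Ank1 by 2.52, 2.66, 2.82 and 2.82 times. The induced ratios were slightly higher (exact permutation p = 0.333).

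Epb42 encodes protein 4.2, an inactive relative of the transglutaminases that binds band 3 and ankyrin. It was the lowest member in uninduced cells and had the largest log2 fold change of the 9. Its locus (chromosome 2, 121017891 to 121037072) was at 1.90 and 1.97 FPKM without and 32.8 and 27.3 FPKM with DMSO. The uninduced values were close to each other, and induced replicate 1 was the higher of its pair. The log2 fold change was 3.40 ± 0.21 (limma adjusted p = 0.00503), and the means, 1.94 and 30.05 FPKM, differed 15.5-fold. Over its binding partner Ank1, Epb42 stood at 0.18 and 0.197 in uninduced and 0.866 and 0.628 in induced samples. This ratio did not overlap between groups.

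At the junctions, transcripts of protein 4.1 and MPP1 both rose. Epb41, protein 4.1 (chromosome 4, 131923413 to 132075321), was at 26.1 and 25.2 FPKM without and 46.9 and 67.0 FPKM with DMSO. The induced replicates stood apart from each other but above both uninduced ones. The rise of Epb41, 1.10 ± 0.24 in log2 (limma adjusted p = 0.0316), was the smallest of the 8 members called. Mpp1, a palmitoylated scaffold that binds protein 4.1 and glycophorin C (chromosome X, 75109733 to 75131016), was at 27.3 and 24.0 FPKM without and 89.5 and 84.1 FPKM with DMSO. Replicate 1 was slightly higher in both groups. Mpp1 rose by 1.72 ± 0.19 in log2 (limma adjusted p = 0.0128). Levels of both genes overlapped in uninduced cells, with Mpp1 over Epb41 at 1.05 and 0.95, while in induced cells the ratio was 1.91 and 1.25. The Epb41 locus pools 18 transcripts, so the known change of its splicing in erythroid cells cannot be read from it. The Mpp1 locus of the table begins at 75095854, beyond the 3′ end of the GENCODE gene.

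Among the actin filament proteins, Tmod1 had the largest change. It encodes the tropomodulin that caps the slow-growing end (chromosome 4, 46038935 to 46116032). The Tmod1 locus of the table runs on to 46196311, beyond the 3′ end of the GENCODE gene, so its level may not be that of the gene alone. Uninduced samples held 4.15 and 5.40 FPKM, induced ones 27.0 and 43.3 FPKM. Replicate 2 was higher in both groups, and its induced pair differed more than that of the other members. Tmod1 rose by 2.62 ± 0.30 in log2 (limma adjusted p = 0.0128), and the means differed 7.37-fold. Dmtn, the actin-bundling protein dematin (chromosome 14, 70601263 to 70636048), was at 10.6 and 12.3 FPKM without and 28.1 and 35.8 FPKM with DMSO. Groups did not overlap, and the rise was 1.40 ± 0.22 in log2 (limma adjusted p = 0.0183).

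The adducins cap the fast-growing end and attach spectrin to actin there. Add1, the alpha subunit (chromosome 5, 34573664 to 34632308), was at 25.7 and 27.6 FPKM without and 62.4 and 82.0 FPKM with DMSO, for a locus shared with Mir7036b. No values overlapped, and Add1 rose by 1.39 ± 0.22 in log2 (limma adjusted p = 0.018). Add2, the beta subunit (chromosome 6, 86028681 to 86124409), was at 68.2 and 76.8 FPKM without and 103 and 111 FPKM with DMSO. It was the most abundant member before induction and the only member not called, although its groups did not overlap. The difference was 0.56 ± 0.19 in log2 (limma adjusted p = 0.0862). With quantile normalization it was 0.83 and passed (limma adjusted p = 0.0332), and 9 members were then called. The Add2 locus held a single transcript, which begins inside the GENCODE gene. Add1 over Add2 stood at 0.377 and 0.359 in uninduced and 0.607 and 0.738 in induced samples, without overlap.

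**Figure D2:**
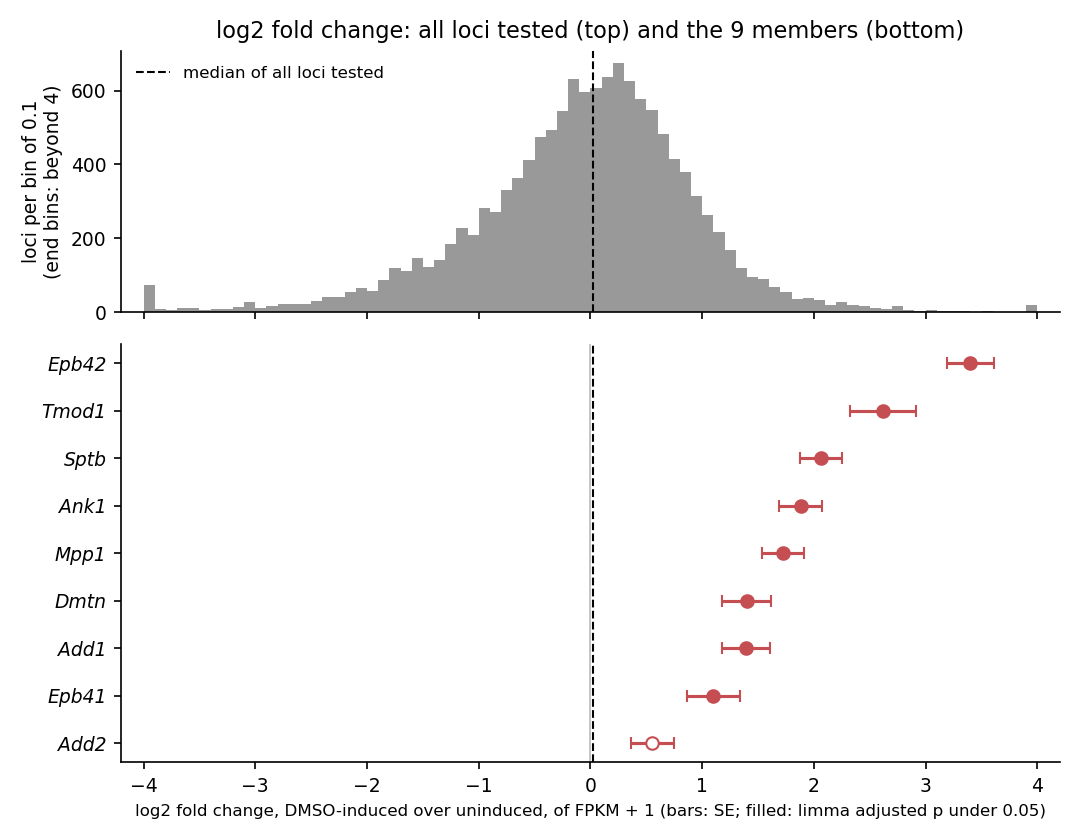
The upper panel counts all 12890 loci tested by log2 fold change of FPKM + 1 (DMSO-induced over uninduced), with changes beyond 4 in the end bins and the median as a dashed line. The lower panel gives the 9 members with SE bars, filled where the limma adjusted p was under 0.05: each lies to the right of the median, from 0.56 for Add2 (open) to 3.40 for Epb42.

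The members lay closer together in induced cells. In uninduced cells the highest member, Add2, exceeded the lowest, Epb42, by 35.9 and 39.0 times. In induced cells Sptb was the highest, and it exceeded the lowest by 3.96 times (Tmod1, replicate 1) and 4.49 times (Epb42, replicate 2). The uninduced order was Add2, then Add1, Sptb, Mpp1 and Epb41 at 25.6 to 26.6 FPKM on average, Dmtn and Ank1, then Tmod1 and Epb42. Neighbours from Add1 to Epb41, and Dmtn with Ank1, overlapped in their 2 samples. The induced order was Sptb, Add2, Mpp1, Add1, Epb41, Ank1, Tmod1, Dmtn and Epb42. There Sptb overlapped with Add2, Add1 with Epb41, and each neighbour from Ank1 down to Epb42 with the next.

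As shares of the 9 members' sum, which a single scaling factor per library leaves unchanged, Add2 took 33.9% and 36.6% in uninduced and 19.2% and 18.0% in induced samples. Sptb went the other way, from 13.2% and 12.7% to 20.04% and 19.9%. Epb42 took 0.945% and 0.939% against 6.14% and 4.43%, and Tmod1 took 2.06% and 2.57% against 5.06% and 7.03%. The share of Epb41 was 12.5% ± 0.66 against 9.82% ± 1.49 (SD, n = 2 each), lower without overlap although its level rose. Shares of Add1 (12.96% and 12.5% on average) and Dmtn (5.56% and 5.53%) overlapped between groups. For the 7 other members, groups did not overlap, and each exact two-sided permutation p was 0.333 (0.428 adjusted over the 9 shares). In FPKM, a measure unlike these shares, groups were apart in either direction at 70.8% of all loci tested. The count of shares without overlap therefore says little by itself.

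**Figure D3:**
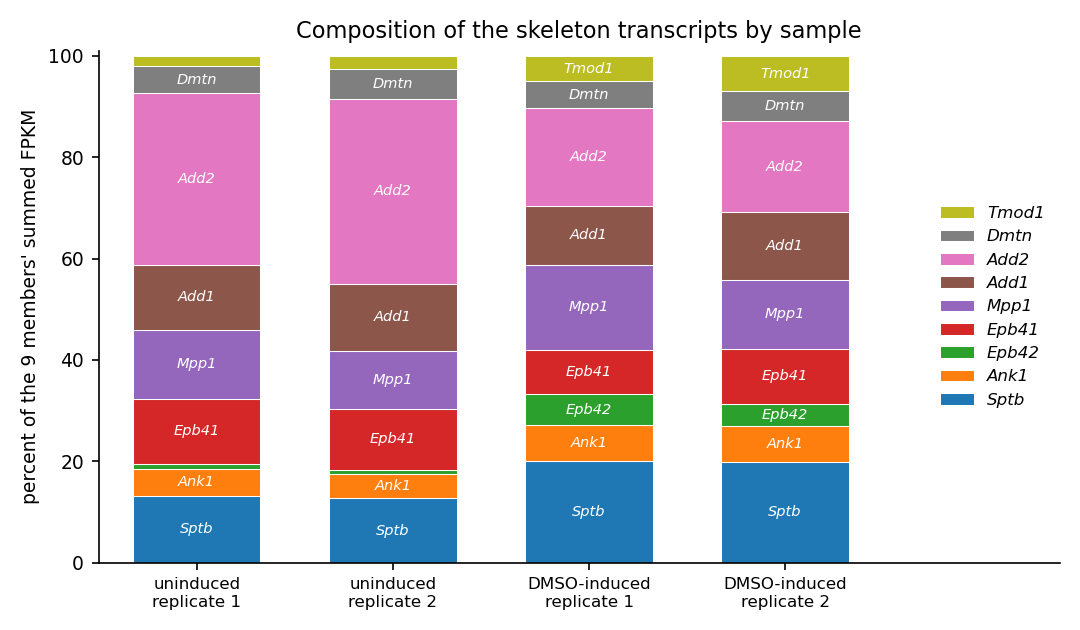
Stacked bars give each member's percent of the 9 members' summed FPKM in the 4 samples. The Add2 block shrinks from 33.9% and 36.6% to 19.2% and 18.0%, while the Sptb block widens from 13.2% and 12.7% to 20.04% and 19.9%.

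Most members belong to families with relatives used outside the red cell lineage, and within 5 of 6 families the erythroid member's share was larger in both induced than in both uninduced samples. Ank1 made up 73.6% and 79.0% of summed ankyrin FPKM (Ank1, Ank2, Ank3) in uninduced and 97.6% and 96.7% in induced samples. The other ankyrins together went from 3.78 and 2.66 to 0.93 and 1.47 FPKM. Tmod1 made up 9.32% and 17.1% of the tropomodulins before and 36.7% and 49.7% after induction. Tmod3, the widely expressed form, was at 39.4 and 25.4 against 45.6 and 42.6 FPKM and was not called (limma adjusted p = 0.233). Mpp1 made up 38.7% and 44.7% of its family against 66.4% and 68.1%. Sptb already dominated the beta-spectrins at 85.9% and 90.3%, and reached 95.9% and 96.3%, with Sptbn4 left out because its locus also holds Shkbp1 and Gm20479. That locus was at 14.6 and 17.5 against 14.9 and 18.1 FPKM, and with all of it counted the Sptb share was 58.3% and 56.7% against 84.6% and 84.4%. Epb41 held 74.0% and 74.8% of protein 4.1 relatives against 80.5% and 83.1%. For these 5 families groups did not overlap, with an exact two-sided permutation p of 0.333 each (0.4 adjusted over 6 families). By FPKM, which is not a share, 70.8% of all loci tested had groups apart in either direction.

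The adducin family gave a different picture. Add2 held 56.8% and 52.8% in uninduced and 56.6% and 53.7% in induced samples, which overlapped (exact permutation p = 1), and the sign of the difference turned when uninduced replicate 2 (-1.65 points) or induced replicate 1 (-1.06 points) was left out. Add1 took 21.4% and 18.9% against 34.3% and 39.6%. Add3, the adducin of most other tissues, took 21.8% and 28.3% against 9.10% and 6.66%. The levels of Add3 were 26.2 and 41.3 against 16.5 and 13.8 FPKM, and it fell (log2 fold change -1.07 ± 0.28, SE, limma adjusted p = 0.0472). It kept that call only with a 5 FPKM filter or a replicate block, and lost it under the 3 other scalings, without a filter, with a pseudocount of 0.1 and when any 1 sample was left out.

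**Figure D4:**
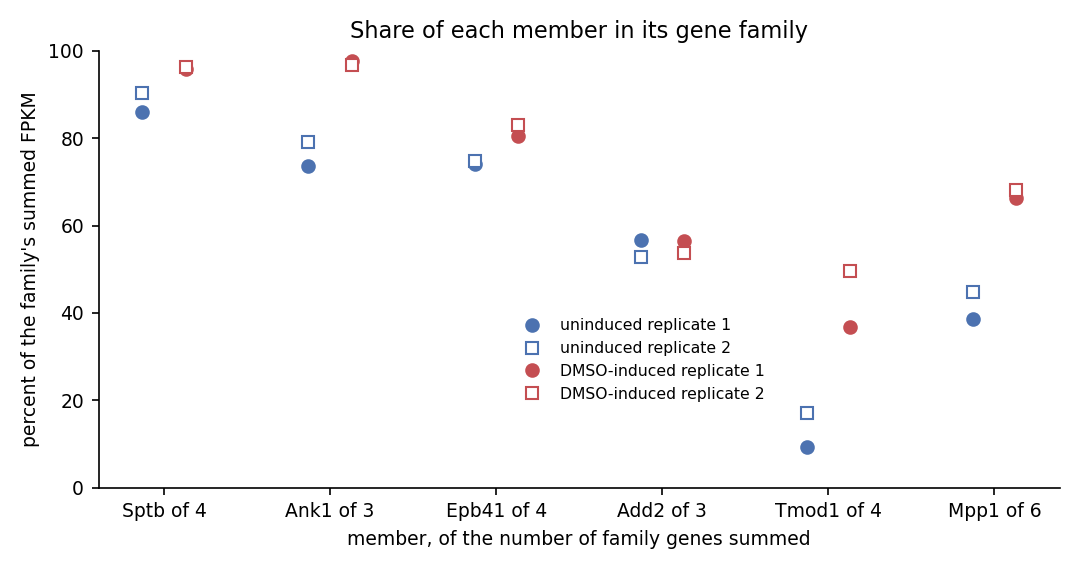
Percent of a gene family's summed FPKM held by the member named on the axis, for each of the 4 samples (uninduced blue, DMSO-induced red). Induced points lie above uninduced points for Sptb, Ank1, Epb41, Tmod1 and Mpp1, and overlap for Add2.

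Over all 20 relatives listed, 13 had a locus of their own and passed the filter on low values. Of these, 2 rose and 3 fell, shares of 15.4% and 23.1%, near the 11.5% and 14.7% of all loci tested. Their median log2 fold change was 0.16. The 2 that rose were Mpp5 (4.59 and 2.33 against 10.5 and 8.09 FPKM), a scaffold of cell polarity, and Mpp7 (1.80 and 1.21 against 4.76 and 4.01 FPKM). Mpp5 lost its call under scaling without globins and with a pseudocount of 0.1. Those that fell were Add3, Mpp3 (3.99 and 4.44 against 1.79 and 1.39 FPKM) and Ank3 (2.14 and 1.94 against 0.68 and 0.81 FPKM), the last named after its values were seen. Ank3 lost its call under quantile normalization, globin-free scaling and a pseudocount of 0.1 (limma adjusted p of 0.0542, 0.0558 and 0.0529). Sptan1, a spectrin of many cell types, was at 10.6 and 10.5 against 6.82 and 8.05 FPKM and was not called (limma adjusted p = 0.151). More distant relatives of Epb42 (transglutaminases) and Dmtn (villin headpiece proteins) were mostly low, with 11 of 15 under the filter. None of the 4 tested was called by limma, and 1 was higher at an unadjusted p under 0.05. The most abundant was Vill (68.0 and 65.1 against 67.1 and 110 FPKM).

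General actin-binding partners of the skeleton did not pass the test. Of 11 tested, limma called 0 higher and 0 lower, against 11.5% and 14.7% of all loci tested. Their median log2 fold change was -0.28, and at an unadjusted p under 0.05 the counts were 1 higher and 0 lower. Actb, cytoplasmic beta-actin and the most abundant of them, was at 1838 and 1783 against 1341 and 1349 FPKM (log2 fold change -0.43 ± 0.26, limma adjusted p = 0.255). The gene at an unadjusted p under 0.05 was Myl6, a myosin light chain named after its values were seen, at 336 and 425 against 659.69 and 697 FPKM (limma adjusted p = 0.0566). Under quantile normalization, under the scaling that leaves out globins, and with a replicate block, 1 of the 11 was called higher.

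Membrane proteins that hold the skeleton were mostly higher. Of 11 tested with a locus of their own, 7 rose and 1 fell. These are shares of 63.6% and 9.09%, against 11.5% and 14.7% of all loci tested, and the median log2 fold change was 1.93. Slc4a1, the band 3 exchanger bound by ankyrin and protein 4.2, was at 0.49 and 0.56 FPKM without and 82.8 and 186 FPKM with DMSO. Against Ank1 its level stood at 0.0464 and 0.0559 before and 2.19 and 4.29 after induction. Gypc, the glycophorin bound by protein 4.1 and MPP1, was at 21.6 and 28.1 against 91.4 and 153 FPKM. It stood at 0.829 and 1.11 times Epb41 before and 1.95 and 2.28 times after induction. Rhd, an Rh blood group protein, rose from 39.9 and 40.7 to 203 and 232 FPKM (limma adjusted p = 0.00785). Kel, the Kell blood group protein, rose from 10.1 and 8.90 to 42.0 and 61.4 FPKM (limma adjusted p = 0.0128). Icam4, an adhesion protein and the most abundant of the list over the 4 samples' mean, though below Rhd in induced samples, was at 135 and 130 against 158 and 144 FPKM and was not called (limma adjusted p = 0.483). Cd44, an adhesion receptor of less mature cells, was the 1 that fell, from 32.0 and 18.8 to 5.44 and 3.11 FPKM. Gypc was named after its values were seen. The count of anchors called higher was 0 without either uninduced replicate and 1 without induced replicate 2. With any 1 sample left out, no skeleton partner, relative, enzyme or regulator was called, and without a filter no gene of these lists or of the anchors was.

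**Figure D5:**
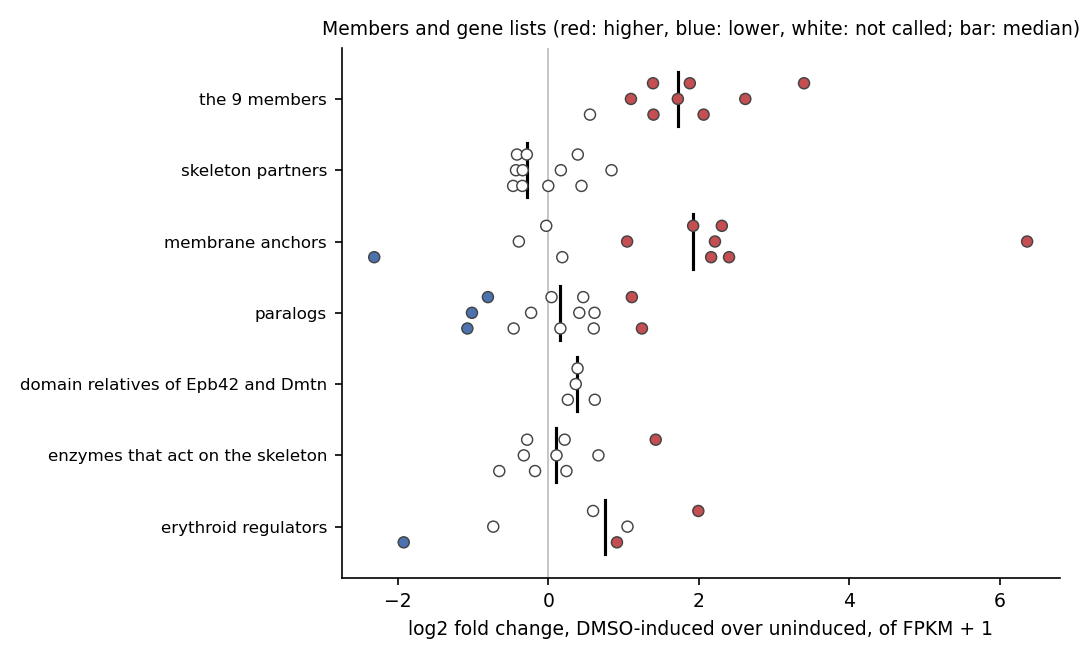
Each point is a gene's log2 fold change of FPKM + 1, for the 9 members and the 6 lists (red called higher, blue called lower, white not called by limma), with a bar at each list's median. Medians stand at 1.72 for the members and 1.93 for the membrane anchors, against -0.28 for skeleton partners and 0.16 for paralogs.

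Among enzymes that act on the skeleton, the share called higher was near that of all loci (11.1% against 11.5%). Of 9 tested, 1 rose, Cast, which encodes the calpain inhibitor calpastatin (3.21 and 2.32 against 8.74 and 9.39 FPKM, log2 fold change 1.43 ± 0.23, limma adjusted p = 0.0186). None fell by limma, and at an unadjusted p under 0.05 2 were higher and 1 lower. Capns1, the small calpain subunit, was the most abundant and was not called (limma adjusted p = 0.507). Of 6 regulators tested, 2 rose and 1 fell, shares of 33.3% and 16.7%, against 11.5% and 14.7% of all loci tested. At an unadjusted p under 0.05, 3 were higher and 2 lower. Tal1 (31.1 and 43.0 against 135 and 164 FPKM) and Klf1 (116 and 117 against 200.04 and 243 FPKM) were those that rose. Klf1 is a known activator of membrane skeleton genes, and Tal1 acts in complexes with Gata1 and Lmo2. Lmo2, the adaptor of these complexes, fell from 79.5 and 87.7 to 19.6 and 23.3 FPKM. Gata1 was the most abundant at 247 and 290 against 346 and 473 FPKM and was not called (limma adjusted p = 0.138).

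Between replicates, 7 of 9 members were higher in induced replicate 2 than in induced replicate 1, with Epb42 and Mpp1 the exceptions, against 52.9% of all loci tested. In the uninduced pair 5 of 9 were higher in replicate 2, against 43% of all loci. The difference within the induced pair ran from -0.26 (Epb42) to 0.66 (Tmod1) on the log2 scale of FPKM + 1, less than each member's own change. Beside this, Hba-a1, an alpha globin gene (40301 and 67689 FPKM), and Slc4a1 were higher in induced replicate 2 as well. Their part in these differences was not tested.

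Genes with the most similar pattern were taken by the root mean square distance of centred log2(FPKM + 1) over the 4 samples. Candidates were loci tested with a mean of at least 5 FPKM and a single symbol that is not provisional (Gm or Rik). They numbered 6764 for the mean profile, counted before the members were left out. For a single member they numbered 6765, with all members counted, Add1 and itself among them, so other members could be neighbours. Nearest to the members' mean profile were Slc30a9 (distance 0.0322), Klhl24 (0.0379), Ube2l6 (0.0449), Dstyk (0.0456) and Abat (0.0554). Slc30a9, a zinc transporter family protein, was at 18.7 and 19.8 FPKM without and 67.2 and 75.9 FPKM with DMSO. Ube2l6, a ubiquitin-conjugating enzyme, was at 23.8 and 23.3 against 79.9 and 96.1 FPKM. Single members had neighbours of their own: Trim10 for Sptb (distance 0.0835), Klhl24 for Ank1 (0.0302), Gpcpd1 for Mpp1 (0.0378), Adnp2 for Add2 (0.00869) and Laptm4a for both Add1 (0.0233) and Dmtn (0.0307). Fam134a was nearest to Epb41 (0.0151), and Malat1 to Tmod1 (0.0948). Epb42 had no close neighbour, the nearest being the pseudogene Cyp4b1-ps2 at 0.252. Over 4 samples in 2 groups, such a distance is a description.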

How the data were processed

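Total RNA of 2 uninduced and 2 DMSO-induced MEL samples was sequenced after ribosomal RNA depletion, per the labels' protocols. TopHat2 and GRCm38 are named in the submitters' processing notes; version, quantifier, annotation and strandedness are unstated there. Each sample has its own column of FPKM in the table the authors deposited. That unit is an inference from the Cufflinks-type layout, per the file headers, and from sums above those of CPM or TPM. No count was recovered, so no count model was used.

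The 12890 loci reaching 1 FPKM in 2 or more samples were tested on log2(FPKM + 1) with limma 3.58.1 in R 4.3.3 (trend, not robust), group as the only term, two-sided, Benjamini-Hochberg over all loci at 0.05. The fit was also run on data simulated with independent noise of the fitted variance, which cannot check that variance. Family shares, ratios and sums used exact two-sided permutation tests over 6 arrangements; 9 ratios were computed (adjusted p = 0.333 each). Listed genes in loci with several symbols were left out of list counts and family sums, apart from Add1. Starts in the table count from 0 and were raised by 1; gene positions are from GENCODE M21. Promoter windows are from RefSeq.

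The members and lists were chosen with earlier results of these data known. Named genes were the members and, per list, the most abundant and up to 4 called genes of largest change, plus nearest patterns and cell type markers. Sptan1, Ank3, Myl6, Gypc and the Sptbn4 locus were named outside this rule. Piezo1, Zfpm1 and Cbfa2t3 were not analysed here, and some listed genes are not reported here and enter no count. Alternatives were 3 scalings, 2 filters, a pseudocount of 0.1, a replicate block and leaving out each sample.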

Additional observations from a re-analysis of the deposited data

How the results depend on the processing

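The 9 members' log2 fold changes stayed above 0 under all 11 alternatives. Under quantile normalization their median was 1.91, and 1.82 when globins and the top 10 loci were left out of the scaling. Without a filter, 0 members passed, and 7 of all loci were called higher. With 1 sample left out, members called higher ranged from 0 to 3, all loci called higher from 0 to 180, and the members' median from 1.63 to 1.81; such fits rest on 1 lone sample in an arm, assumed to vary like the other group. The differences in summed FPKM and in family shares kept their direction in the alternatives run for them, except the Add2 share of the adducins: its difference, 0.367 points, ranged from -1.65 to 2.39 with 1 sample left out, and was -1.06 without induced replicate 1. With loci shared with other genes counted, chosen after seeing the data, the difference was 26.95 points for Sptb (8.0 as reported) and 24.8 for Mpp1 (25.5).

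Counts of list genes moved as follows. Skeleton partners higher were 0 as reported, 1 under quantile normalization and 1 under the globin-free scaling. Membrane anchors were 0 higher and 0 lower without a filter. Paralogs were 1 higher and 1 lower under the globin-free scaling, with the 5 FPKM filter and with a pseudocount of 0.1; 1 was lower under quantile normalization, and 0 either way without a filter. Enzymes higher were 2 under quantile normalization and 0 without a filter. Regulators higher were 3 under quantile normalization, the globin-free scaling, the 5 FPKM filter and the replicate block, regulators lower were 2 under median-of-ratios scaling, and regulators were 0 either way without a filter. With 1 sample left out, anchors higher ranged from 0 to 5, and anchors lower, skeleton partners, paralogs, enzymes and regulators were at 0 in each case.

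Replicate numbers in the titles were not stated to mark a shared culture or day, and deviations of same-numbered samples correlated at 0.17 across loci. With the replicate number as a block, 8 members were called higher, skeleton partners higher were 1 and regulators lower 2; calls over all loci went from 1478 higher and 1899 lower to 1939 and 2299. Fragment totals are unknown, which limits low levels such as Epb42 in uninduced cells.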
